A study of Mus musculus with 8 samples.

Results

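The 10 genes described here, *Zfp42*, *Dppa2*, *Dppa4*, *Utf1*, *Lin28a*, *L1td1*, *Dppa5a*, *Tdh*, *Tdgf1* and *Fbxo15*, are effectors and markers of mouse embryonic stem cells (ESCs) that lie downstream of the core pluripotency network. They were chosen by symbol among the 26263 genes of the deposited count tables, all 10 were found, and all 10 passed the filter on low counts, which 16399 genes passed. The study used male ESC lines that were hybrids of the mouse strains C57BL/6 (B6) and JF1, in both directions of the cross, and differentiated them into neural precursor cells (NPCs) to follow imprinted expression during neural commitment. B/J denotes line BJE2, with the genotype C57BL/6 x JF1 (B6 mother, JF1 father), and J/B denotes line JBE6, with the genotype JF1 x C57BL/6 (JF1 mother, B6 father). ESCs were kept on gelatin in ESGRO complete plus medium, which holds LIF, BMP4 and a GSK3-β inhibitor. NPCs came from the same lines at day 12 of *in vitro* corticogenesis. PolyA RNA was sequenced in 2 replicates of each of the 4 groups (8 libraries). Each cross was represented by 1 line, so that the cross and the line cannot be told apart.

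ESCs copy the pluripotent cells of the early embryo, and a few transcription factors, with OCT4 (*Pou5f1*), SOX2 and NANOG at the centre, keep them undifferentiated. The genes below them include chromatin proteins, RNA-binding proteins, an enzyme and a signalling co-receptor, and most are silenced when the cells leave pluripotency. LIN28A is an exception in the neural lineage, since early neural precursors of the embryo still make it before it is lost as the let-7 microRNAs mature.

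Each library held 22537138 to 32706015 reads on genes. Levels are given as CPM, a read count scaled by this total, and 1 count was worth 0.0306 to 0.0444 CPM. The 10 genes were far above this level in each library, with a lowest count of 22 in NPCs (*Dppa2*, J/B replicate 1) and of 2138 in ESCs (*Zfp42*, J/B replicate 1). The labelled cell types were checked against markers. The summed level of 15 core and naive pluripotency transcription factors lay between 5578 and 7487 CPM in ESCs and between 354 and 694 CPM in NPCs, and that of 10 neural precursor markers between 284 and 367 CPM in ESCs and between 874 and 2056 CPM in NPCs. Trophoblast markers (1328 to 3654 CPM, after 52.4 to 171 CPM in ESCs) and fibroblast markers (2455 to 3826 CPM, after 1441 to 1835 CPM) also read higher in NPCs, so the NPC libraries did not hold neural markers alone. Most of the fibroblast sum in ESCs was *Fn1*, at 1431 to 1767 CPM there and at 1514 to 1819 CPM in NPCs. In such bulk libraries, fewer ESC-like cells and less RNA per cell cannot be told apart. Nothing in the labels says that replicates came from separate cultures, and the p-values then measure only the spread between these samples, which may be technical.

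The promoters of 2 of the genes are shown, as the 250 bases upstream of the transcription start in GENCODE vM39 (GRCm39), each 5′ to 3′ on the strand of its gene. *Zfp42* (chr8:43760153-43760402, minus strand) and *Lin28a* (chr4:133746174-133746423, minus strand) are shown because they held the only matches to the motifs searched, which are in capitals.
Zfp42: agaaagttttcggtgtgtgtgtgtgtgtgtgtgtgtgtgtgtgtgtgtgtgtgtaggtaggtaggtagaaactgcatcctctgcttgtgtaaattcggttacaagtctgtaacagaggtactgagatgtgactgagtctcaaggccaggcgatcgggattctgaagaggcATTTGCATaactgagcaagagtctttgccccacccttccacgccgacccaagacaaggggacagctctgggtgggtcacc
Lin28a: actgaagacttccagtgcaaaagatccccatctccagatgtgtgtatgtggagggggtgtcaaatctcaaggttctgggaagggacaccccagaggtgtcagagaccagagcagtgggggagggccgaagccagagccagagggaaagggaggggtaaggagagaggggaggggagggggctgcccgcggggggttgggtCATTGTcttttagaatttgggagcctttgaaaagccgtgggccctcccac
The capitals in *Zfp42* are ATTTGCAT, the reverse complement of the octamer ATGCAAAT bound by OCT4, which begins 80 bases upstream of the start. Those in *Lin28a* are CATTGT, a core of SOX sites, 50 bases upstream. Both strands were searched in the 250-base windows of 21770 genes. The octamer was found in 1.49% of these windows and in 1 of the 10 genes, and the SOX core in 9.41% and in 1 of the 10. None of the 10 held the ESRRB motif TCAAGGTCA (0.432% of windows), the KLF motif CCACACCC (3.56%) or the YY1 motif (0.165%). The composite of the SOX core and the octamer with 1 base between them was found in 0 of all windows. These matches describe letters and not binding, which was not measured here. The ratio of observed to expected CpG was 0.208 (*Lin28a*) to 0.556 (*L1td1*) in 9 of the windows, against a median of 0.474 over all genes, and 1 in *Fbxo15*, at percentile 95.

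*Lin28a* was also examined for the target site of let-7, because LIN28A blocks the maturation of this microRNA family and is itself a let-7 target. The mature sequence from RefSeq is shown with its seed in capitals, a seed shared by all 9 members of the family that were listed, followed by the stretches of the *Lin28a* 3′ UTR (GRCm39, minus strand) that end in the site CTACCTCA, in capitals.
mmu-let-7a-5p: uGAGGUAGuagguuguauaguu
Lin28a site, chr4:133732500-133732521: cacagcctgttgaaCTACCTCA
Lin28a site, chr4:133731862-133731883: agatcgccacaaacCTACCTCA
The *Lin28a* 3′ UTR is 2775 bases long and held 2 such sites. The site CTACCTCA was found in 3.32% of 20768 mouse 3′ UTRs and its first 7 letters in 9.96%. Of the 9 members whose 3′ UTR was searched, *Lin28a* was the only one with either. MicroRNAs were not measured in these libraries.

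The first question was how far the 10 genes fell between ESCs and NPCs. All 10 fell, and in none did the ESC and NPC libraries overlap. The share of the ESC mean left in NPCs was lowest for *Tdh* (1.42% ± 1.38, SD, n = 4 libraries) and highest for *Lin28a* (22.1% ± 20.5). Of all genes tested, 31.9% were called lower in NPCs, that is, passed edgeR's quasi-likelihood test with an adjusted p under 0.05, and 20.5% had every NPC library below every ESC library. These means rest partly on single libraries. The share left fell to 11.9% for *Lin28a* without NPC J/B replicate 1 and to 0.749% for *Tdh* without NPC B/J replicate 2, so that each kept its place at the end of the order. The log2 fold change of the 10 genes had a median of -5.47, against 0.17 for all genes tested. It was below -3 in 9 of them, a size that 4.03% of all genes reached, and below -2 in all 10, which 7.98% reached. The summed level of the 10 was 4745 to 5887 CPM in ESCs and 179 to 431 CPM in NPCs. Changes below are log2 fold changes of NPCs over ESCs over both crosses, with their standard error (SE), from the quasi-likelihood test of edgeR, with p-values adjusted (Benjamini-Hochberg) over all genes tested.

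**Figure D1:**
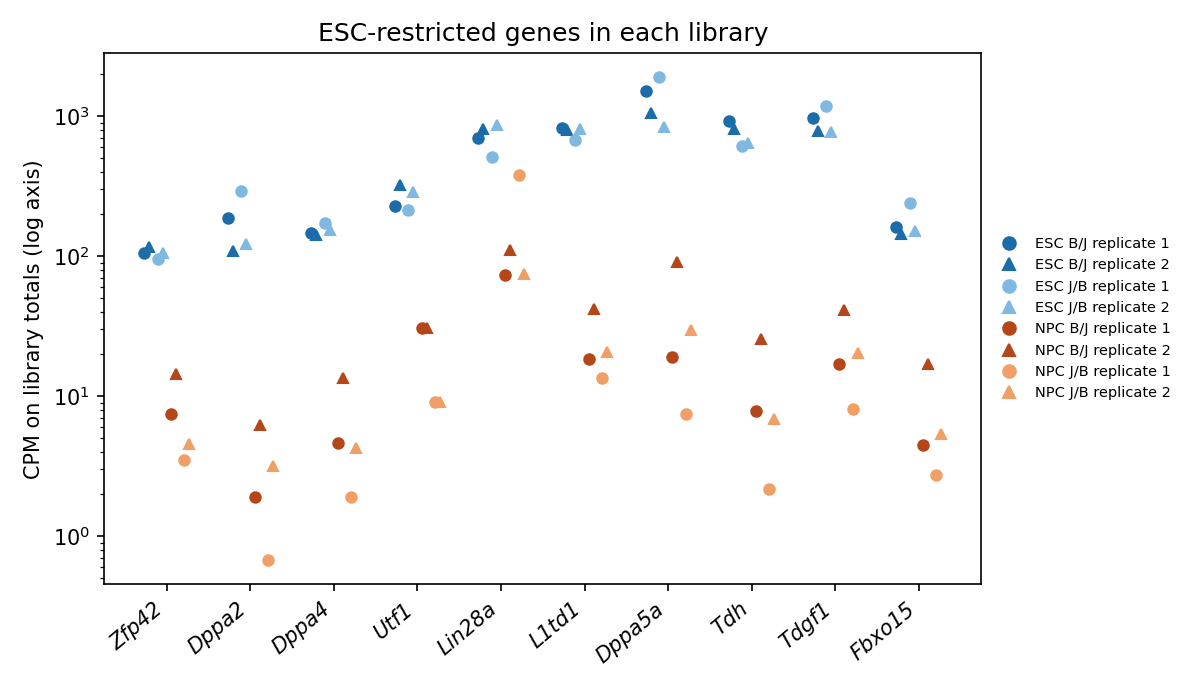
Level of each of the 10 genes in each of the 8 libraries, in CPM on a log axis, with ESC and NPC libraries set apart and crosses and replicates marked. Every NPC value lay below every ESC value of its gene, and *Lin28a* in NPC J/B replicate 1 (382 CPM) lay closest to its ESC levels.

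Among the genes of transcription and chromatin, *Zfp42* encodes REX1, a zinc finger protein related to YY1 and a classical marker of naive ESCs (chr8:43743871-43760152, minus strand, 4 exons). Its level in ESCs was 106 and 117 CPM in B/J replicates 1 and 2 and 94.9 and 106 CPM in J/B replicates 1 and 2. In NPCs it was 7.47 and 14.3 CPM in B/J and 3.52 and 4.53 CPM in J/B. The ESC libraries were close together (coefficient of variation 8.55%), whereas both J/B NPC libraries lay below both B/J ones. *Zfp42* fell by 4.48 (SE 0.233, adjusted p = 1.24e-05, edgeR), and 7.03% ± 4.59 of its ESC mean was left.

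*Dppa2* and *Dppa4* encode SAP domain proteins that act together on chromatin and keep bivalent promoters open (chr16:48124105-48140618 with 8 exons and chr16:48104062-48114896 with 7 exons, both plus strand, with starts 20 kb apart). *Dppa2* was read in ESCs at 189 and 109 CPM in B/J and at 293 and 121 CPM in J/B, and in NPCs at 1.92 and 6.25 CPM in B/J and at 0.673 and 3.16 CPM in J/B. Replicate 1 was the higher in ESCs and the lower in NPCs in both crosses. *Dppa2* fell by 6.49 (SE 0.662, adjusted p = 0.000107, edgeR), the change ranked 45 from the lowest of all genes tested. For *Dppa4* the ESC levels were more even, at 146 and 141 CPM in B/J and 174 and 155 CPM in J/B (coefficient of variation 9.36%, against 47.4% for *Dppa2*). The NPC levels of *Dppa4* were 4.64 and 13.5 CPM in B/J and 1.90 and 4.25 CPM in J/B, so that replicate 2 was again the higher. *Dppa4* fell by 5.35 (SE 0.407, adjusted p = 3.65e-05, edgeR). Left in NPCs were 1.69% ± 1.34 of the ESC mean of *Dppa2* and 3.95% ± 3.32 of that of *Dppa4*. An exon of *Gm60908* on the opposite strand shares 196 bases with *Dppa2*, and because the use of strand in counting is not given, reads of the pair could not be separated.

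*Utf1* encodes a chromatin-associated protein of ESCs and lies at chr7:139523649-139525025 (plus strand, 2 exons). It was read in ESCs at 230 and 321 CPM in B/J and at 212 and 285 CPM in J/B. In NPCs it was read at 30.9 and 30.4 CPM in B/J and at 9.02 and 9.13 CPM in J/B. The replicates of each cross were nearly equal in NPCs, and the level in B/J was above that in J/B. *Utf1* fell by 4.44 (SE 0.166, adjusted p = 9.2e-06, edgeR), the smallest SE among the 10 genes, and 7.58% ± 4.75 of its ESC mean was left.

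Among the RNA-binding proteins, LIN28A (*Lin28a*, chr4:133730641-133746173, minus strand, 4 exons) was read in ESCs at 701 and 814 CPM in B/J and at 514 and 867 CPM in J/B. In NPCs the levels were 73.8 and 110.05 CPM in B/J but 382 and 74.5 CPM in J/B. A single NPC library, J/B replicate 1, thus kept 52.7% of the ESC mean, while the other 3 kept 10.2% to 15.2%. *Lin28a* fell by 2.79 (SE 0.479, adjusted p = 0.00133, edgeR), the smallest change of the 10 genes. Without NPC J/B replicate 1 the change was -3.62 (adjusted p = 0.000134), and over the single libraries left out it ranged from -3.62 to -2.42. An exon of *Gm13061* on the opposite strand shares 121 bases with *Lin28a*.

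*L1td1*, derived from a LINE-1 retrotransposon, encodes a protein that binds RNA and interacts with LIN28A (chr4:98614971-98626717, plus strand, 5 exons). Its ESC levels were 824 and 799 CPM in B/J and 671 and 807 CPM in J/B, and its NPC levels 18.3 and 42.0 CPM in B/J and 13.5 and 20.5 CPM in J/B. Unlike *Lin28a*, it was lowest in NPC J/B replicate 1. It fell by 5.58 (SE 0.309, adjusted p = 1.53e-05, edgeR), and 3.04% ± 1.63 was left.

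*Dppa5a*, also called *Esg1*, encodes a small KH domain protein (chr9:78274031-78278208, minus strand, 3 exons). It was read in ESCs at 1521 and 1060.1 CPM in B/J and at 1899.9 and 843 CPM in J/B, and in NPCs at 19.12 and 90.2 CPM in B/J and at 7.43 and 29.9 CPM in J/B. Replicates differed widely, with replicate 1 the higher in ESCs and the lower in NPCs, and the coefficients of variation were 35.5% in ESCs and 101% in NPCs. *Dppa5a* fell by 5.88 (SE 0.708, adjusted p = 0.000229, edgeR). Its SE was the largest of the 10. *Dppa5a* has near copies in the mouse genome, between which the authors' counting could split reads, and an exon of *Gm70238* on the opposite strand shares 133 of its 729 transcript bases.

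*Tdh* encodes threonine dehydrogenase, the mitochondrial enzyme that opens the breakdown of threonine to glycine and acetyl-CoA, on which mouse ESCs depend (chr14:63724585-63751098, minus strand, 9 exons). In ESCs it was read at 931 and 812 CPM in B/J and at 616 and 643 CPM in J/B, both J/B libraries below both B/J ones. In NPCs it was read at 7.79 and 25.8 CPM in B/J and at 2.17 and 6.91 CPM in J/B, again with both J/B libraries below. *Tdh* fell by 6.90 (SE 0.532, adjusted p = 3.78e-05, edgeR), the largest change of the 10 and rank 28 from the lowest of 16399 genes. Exons of *Gm17232* and *Gm63171* on the opposite strand share 508 and 383 of its 1881 transcript bases.

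*Tdgf1* encodes CRIPTO, the EGF-CFC co-receptor through which NODAL and GDF3 reach the activin receptors (chr9:110768655-110775292, minus strand, 6 exons, named *Cripto* in GENCODE). In ESCs it was read at 964 and 782 CPM in B/J and at 1173 and 765 CPM in J/B. In NPCs it was read at 17.0 and 41.5 CPM in B/J and at 8.04 and 20.3 CPM in J/B. Replicate 2 was the lower in ESCs and the higher in NPCs. *Tdgf1* fell by 5.99 (SE 0.450, adjusted p = 3.49e-05, edgeR), and 2.36% ± 1.54 was left.

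*Fbxo15*, on chromosome 18, encodes an F-box protein, the substrate-binding part of an SCF ubiquitin ligase, and was used as the reporter in early reprogramming work. In ESCs it was read at 161 and 143 CPM in B/J and at 239 and 152 CPM in J/B, and in NPCs at 4.51 and 17.0 CPM in B/J and at 2.72 and 5.39 CPM in J/B. J/B replicate 1 held both the highest ESC and the lowest NPC level. *Fbxo15* fell by 5.20 (SE 0.475, adjusted p = 6.82e-05, edgeR), and 4.26% ± 3.75 was left.

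**Figure D2:**
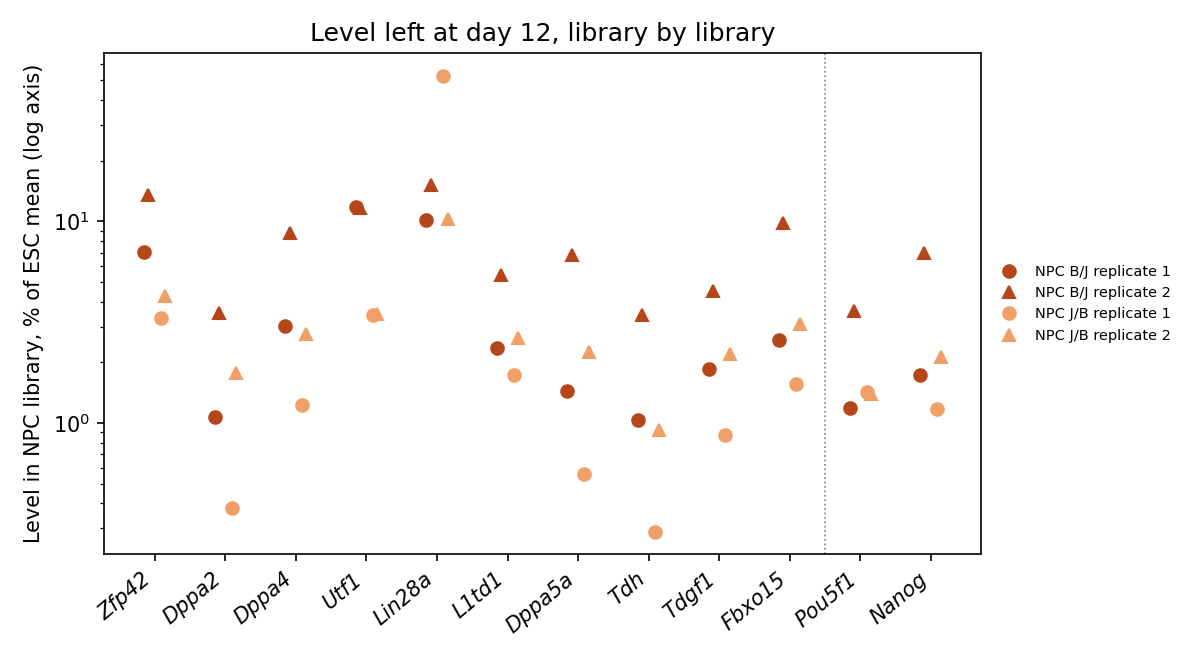
Percentage of the ESC mean left in each NPC library for the 10 genes and for *Pou5f1* and *Nanog*, on a log axis. NPC B/J replicate 2 lay highest for most genes. The means of the 10 genes over the 4 libraries, which are not drawn, ran from 1.42% (*Tdh*) to 22.1% (*Lin28a*).

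*Pou5f1* and *Nanog* fell to the same range, with 1.90% ± 1.14 and 2.995% ± 2.66 of their ESC means left (n = 4 libraries). Without NPC B/J replicate 2 the mean left was 1.68% for *Nanog*, 1.08% for *Dppa2*, 2.34% for *Dppa4*, 1.41% for *Dppa5a* and 2.42% for *Fbxo15*. These means were between 0.513 (*Dppa5a*) and 0.639 (*Dppa2*) of the value over 4 libraries. From the lowest to the highest share left over the 4 libraries, the 10 genes followed the order *Tdh*, *Dppa2*, *Tdgf1*, *Dppa5a*, *L1td1*, *Dppa4*, *Fbxo15*, *Zfp42*, *Utf1* and *Lin28a*. The order was examined with the log2 ratio of each of the 45 pairs of genes, compared between the 4 ESC and the 4 NPC libraries by a two-sided exact permutation test, for which the smallest possible p is 0.0286. That value was reached by 25 pairs, and with adjustment over the 45 pairs (0.0514) 0 pairs passed 0.05. Neighbours in the order other than *Fbxo15* and *Zfp42* did not reach it, with an exact permutation p of 0.343 for *Tdh* and *Dppa2*, 0.629 for *L1td1* and *Dppa4* and 0.886 for *Zfp42* and *Utf1*. *Lin28a* reached the smallest p of the exact permutation test against *Dppa2*, *Dppa4*, *L1td1*, *Dppa5a*, *Tdh*, *Tdgf1* and *Fbxo15*, having fallen less by 2.35 (*Fbxo15*) to 4.11 (*Tdh*) on the log2 scale, but not against *Zfp42* (0.0571) or *Utf1* (0.171). With NPC J/B replicate 1 left out, an alternative added after seeing the data, these 7 differences shrank to between 1.44 (*Fbxo15*) and 2.98 (*Tdh*), and the pair with *Dppa5a* no longer reached the smallest p of the exact permutation test (0.0571). Without ESC B/J replicate 1 or ESC J/B replicate 1, each of the 7 pairs had an exact permutation p of 0.0571. Without replicate 2 of either ESC group, so did the pairs with *Dppa4*, *Dppa5a*, *Tdh* and *Fbxo15*.

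Levels can be compared between genes only per length, as CPM per kb of transcript. On this scale *Dppa5a* was the most abundant of the 10 in ESCs, at 1826 ± 649 (SD, n = 4 libraries) and rank 16 of the 19091 genes with a length, above *Pou5f1* (1101 ± 205, rank 45). Next came *Tdgf1* (457 ± 94.7), *Tdh* (399 ± 78.9), *L1td1* (263 ± 23.9), *Lin28a* (205 ± 44.3) and *Utf1* (205 ± 39.2). *Fbxo15* (112 ± 28.4), *Dppa4* (85.6 ± 8.01), *Dppa2* (56.6 ± 26.8) and *Zfp42* (55.6 ± 4.75) followed. *Tdgf1* and *Tdh*, *Lin28a* and *Utf1*, and *Dppa2* and *Zfp42* lay within the spread of each other, whereas the lowest *Dppa5a* library (1156) was above the highest library of *Tdgf1* (583). In NPCs *Dppa5a* (50.3 ± 50.6) and *Lin28a* (45.4 ± 42.2) overlapped at the top, *Utf1* followed at 15.5 ± 9.73, and *Dppa2* was lowest, at 0.953 ± 0.760.

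The second question was whether the fall was shared by the reciprocal crosses. All 10 were called lower in each cross taken alone, against 25.6% of all genes tested in B/J and 25.3% in J/B. The median log2 fold change of the 10 was -4.76 in B/J and -6.17 in J/B. It was -3.63 in B/J and -5.26 in J/B for *Utf1*, -3.84 and -5.13 for *Zfp42*, -4.47 and -6.24 for *Dppa4*, and -4.31 and -6.10 for *Fbxo15*. In the same order it was -6.19 and -7.62 for *Tdh*, -5.68 and -7.29 for *Dppa2*, -5.39 and -6.60 for *Tdgf1*, -5.05 and -6.71 for *Dppa5a*, and -5.23 and -5.93 for *L1td1*. The change was thus the larger in J/B for 9 genes, and *Lin28a* was the exception, with -3.52 in B/J (SE 0.70, adjusted p = 0.00437, edgeR) and -2.07 in J/B (SE 0.659, adjusted p = 0.0303, edgeR).

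The call of *Lin28a* within J/B was lost with library totals alone (-1.60, adjusted p = 0.0739, edgeR), with scaling to *Gapdh*, *Gusb* and *Tbp* (-1.42, adjusted p = 0.0957) and in some other settings. Without NPC J/B replicate 1 its change within J/B was -3.72 (adjusted p = 0.0017, edgeR).

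The difference between the crosses was tested as an interaction, J/B change minus B/J change. It called 0 of the 10 genes and 0% of all genes tested (edgeR's quasi-likelihood test), while 573 genes, 3 of the 10 among them, had an unadjusted p below 0.05, and limma-voom called 0 genes and DESeq2 called 11. The estimate was -1.62 (SE 0.292) for *Utf1*, -1.29 (SE 0.411) for *Zfp42* and -1.77 (SE 0.698) for *Dppa4*, each with an adjusted p of 0.9999 in edgeR. With NPC B/J replicate 2 left out, the interaction shrank to -0.80 for *Zfp42* and -0.87 for *Dppa4*, and to between -0.60 (*Fbxo15*) and -0.029 (*L1td1*) for the other 6 genes with the larger change in J/B, whereas that of *Utf1* ranged only from -1.84 to -1.42 over the single libraries left out. DESeq2 called *Utf1* alone of the 10 (-1.62, adjusted p = 0.00973). For *Lin28a* the interaction was 1.45 (SE 0.901, adjusted p = 0.9999, edgeR), and without NPC J/B replicate 1 it was -0.21.

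**Figure D3:**
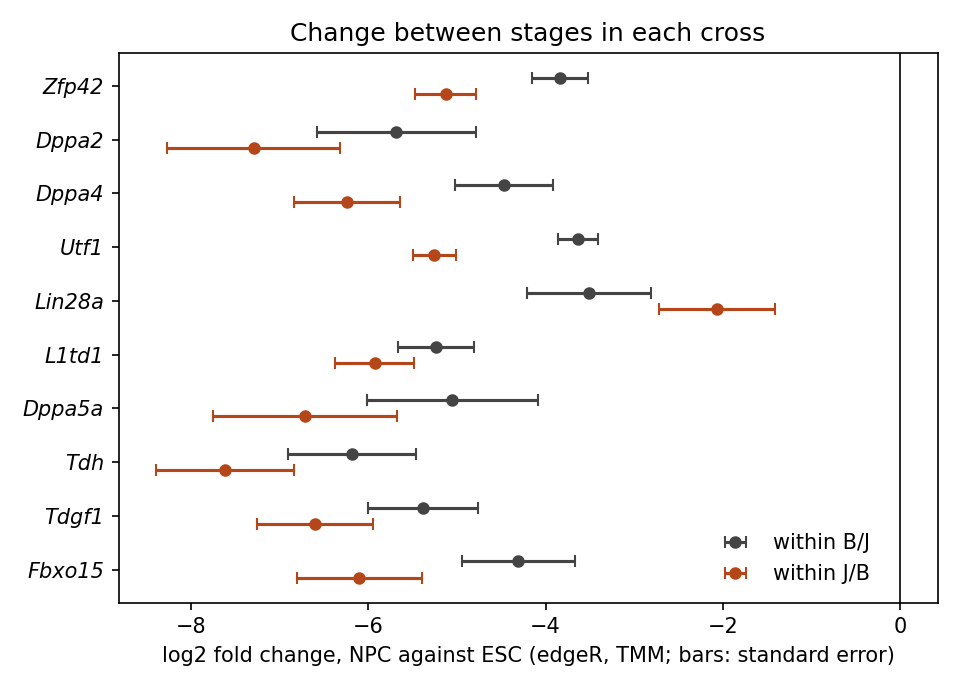
Log2 fold change of NPCs over ESCs of each of the 10 genes, drawn separately for the B/J and J/B crosses, with the SE from edgeR as the error bar. All changes lay below 0, 9 genes lay further left in J/B than in B/J, and *Lin28a* lay further right in J/B (-2.07 against -3.52).

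In ESCs the B/J and J/B libraries overlapped for 7 of the 10 genes. J/B against B/J called 0 of the 10 genes (0% of all genes tested, edgeR's quasi-likelihood test), with 346 of all genes at an unadjusted p below 0.05, 0 calls in limma-voom and 10 in DESeq2. The log2 difference ran from -0.51 (*Tdh*, SE 0.578) to 0.45 (*Dppa2*, SE 0.724). Both J/B libraries lay below both B/J libraries for *Zfp42* and *Tdh* (8.35% of all genes) and above them for *Dppa4* (14% of all genes).

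In NPCs the level was lower in J/B for 9 of the 10 genes, by the mean and in both equally numbered libraries, which 28.7% of all genes showed. The J/B mean was 0.271 of the B/J mean for *Tdh*, 0.296 for *Utf1*, 0.339 for *Dppa4*, 0.341 for *Dppa5a*, 0.370 for *Zfp42* and 0.376 for *Fbxo15*, then 0.470 for *Dppa2*, 0.485 for *Tdgf1* and 0.564 for *L1td1*. Both J/B libraries lay below both B/J libraries for *Zfp42*, *Dppa4*, *Utf1* and *Tdh* (18.6% of all genes). Between the libraries numbered 1, J/B over B/J ran from 0.279 (*Tdh*) to 0.737 (*L1td1*) in these 9 genes. Between those numbered 2 it ran from 0.268 (*Tdh*) to 0.506 (*Dppa2*). The size of the differences also depended on NPC B/J replicate 2. Without that library, only B/J replicate 1 was set against both J/B replicates. The fitted log2 difference of J/B over B/J was then between -0.13 (*Dppa2*) and -0.36 (*Tdgf1*) for *Dppa2*, *Dppa5a*, *L1td1*, *Fbxo15* and *Tdgf1*. It was -0.71 for *Dppa4*, -0.89 for *Tdh* and -0.99 for *Zfp42*, while *Utf1* kept -1.86. For *Lin28a* the J/B mean was 2.48 times that of B/J, which rested on J/B replicate 1, since replicate 2 (74.5 CPM) was level with B/J replicate 1 (73.8 CPM).

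None of these differences was called by edgeR's quasi-likelihood test of the group means with no replicate block, which called 0 of the 10 genes and 0.0061% of all genes tested (1 gene), with 6 of the 10 and 1050 of all genes at an unadjusted p below 0.05, 1 gene called by limma-voom and 70 by DESeq2. The smallest p was that of *Utf1*, with a log2 difference of -1.81 (SE 0.213, adjusted p = 0.232, edgeR), followed by *Zfp42* with -1.48 (SE 0.302, adjusted p = 0.734) and *Dppa4* with -1.61 (SE 0.516, adjusted p = 0.755). *Tdh* had the largest estimate, -1.94 (SE 0.625, adjusted p = 0.755). DESeq2 called *Utf1* (adjusted p = 2.29e-09) and *Zfp42* (adjusted p = 0.00509), and edgeR without the low-count filter called *Utf1* (adjusted p = 0.0314).

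The levels within a group differed between replicates in the same direction for many of the 10 genes. In NPCs replicate 2 was above replicate 1 in both crosses for 8 of the 10 genes, all but *Utf1* and *Lin28a* (35.1% of all genes), and below it in both for 0 (30.5%). NPC B/J replicate 2 was the highest NPC library for these 8 genes (12.1% of all genes), and NPC J/B replicate 1 was the lowest for 9, all but *Lin28a* (22.5%). The excess of B/J replicate 2 over replicate 1 ran from 1.92 times (*Zfp42*) to 4.72 times (*Dppa5a*) among the 8. The summed level of the 15 core and naive transcription factors was likewise highest in NPC B/J replicate 2, at 694 CPM against 354, 610 and 580 CPM in B/J replicate 1 and J/B replicates 1 and 2. Neural precursor markers summed to 874 and 1611 CPM in B/J and 2056 and 1957 CPM in J/B, and trophoblast markers to 3654 and 1924 CPM in B/J and 1954 and 1328 CPM in J/B. The part of these differences in the levels of the 10 genes was not tested.

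In ESCs replicate 2 was below replicate 1 in both crosses for *Dppa2*, *Dppa4*, *Dppa5a*, *Tdgf1* and *Fbxo15* (28.8% of all genes) and above it for *Zfp42*, *Utf1* and *Lin28a* (39.8%). ESC J/B replicate 1, with the highest *Dppa2* level (293 CPM), stood apart in genes of the 2-cell embryo. The set of 14 such genes (*Dux*, 5 *Zscan4* copies, *Zfp352*, *Tcstv1*, *Tcstv3* and 5 *Usp17l* copies), which was chosen after its values were seen, had 2534 counts there (112 CPM), against 0.146 to 0.676 CPM in the other ESC libraries and 0.227 to 2.30 CPM in NPCs. These are multicopy families in which reads of near copies may be split or lost. DPPA2 and DPPA4 are known activators of *Dux*, but the part of either gene in this level was not tested. Without ESC J/B replicate 1 the stage change of *Dppa2* and of the other 9 genes stayed past the threshold over both crosses.

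The other genes of each role were taken from lists, counted by the stage change over both crosses (31.9% of all genes lower and 37.5% higher). Some genes stand in more than 1 list. All 15 core and naive transcription factors fell (median -4.98), with *Pou5f1* at -6.26 and *Nr0b1* at -6.47, the largest change. Of 24 other ESC-restricted genes, 21 fell (median -3.06), led by *Gdf3* (-6.14), and *Slc2a3*, a glucose transporter gene, changed by -1.27. With scaling to *Gapdh*, *Gusb* and *Tbp*, 19 of them fell and 1 rose. Of 9 formative and primed genes, 2 fell, 2 rose and 5 did not pass (median -0.01), with *Dnmt3b*, a *de novo* DNA methyltransferase, at -3.28 and *Sall2* at 2.28. The count depended on the replicates. *Otx2*, a homeobox factor of primed cells and of the forebrain, was read in ESCs at 1.25 and 22.8 CPM in B/J and at 0.932 and 22.6 CPM in J/B, so that replicate 2 was far above replicate 1 in both, and in NPCs at 24.3 to 73.3 CPM. It changed by 1.54 (adjusted p = 0.19, edgeR), and it passed with limma-voom (2.61, adjusted p = 0.0344) and without ESC replicate 2 of B/J (3.15, adjusted p = 0.037) or of J/B (3.34, adjusted p = 0.0204).

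The nearest relatives of the 10 genes did not move as one. *Yy1*, the broadly expressed relative of *Zfp42*, was level at -0.04 (adjusted p = 0.81, edgeR), though 0.43 with library totals (adjusted p = 0.0304), and *Yy2* fell by 1.83. *Khdc3* and *Ooep*, oocyte genes of the *Dppa5a* family, fell by 5.40 and 5.80. *Khdc1a* was called higher in NPCs, at 0.367 to 0.974 CPM after at most 0.0754 CPM in ESCs, and no fold is given because the ESC level was under the floor of 3 counts per library. *Lin28b*, the paralog of *Lin28a*, changed by -0.71 (adjusted p = 0.175, edgeR), and *Cfc1*, the other EGF-CFC co-receptor, was at most 0.226 CPM in ESCs and changed by 1.90 (adjusted p = 0.0939, edgeR, and 0.0494 with library totals).

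Of 13 genes of the LIN28 and let-7 axis, 4 fell and 4 rose, and 3 fell and 5 rose with library totals. The RNA-binding protein gene *Igf2bp1* fell by 1.72, *Hmga1* by 2.64 and *Trim71* by 2.63, while *Hmga2*, an embryonic chromatin gene under let-7 control, rose by 2.90. *Mycn* changed by -2.05 (adjusted p = 0.0272, edgeR) and did not pass in several settings, among them library totals (-1.59, adjusted p = 0.0716). NPC J/B replicate 1, where *Lin28a* was at 382 CPM, was the highest NPC library for 10 of the 13 genes, against 26.3% of all genes. *Lin28b* was at 79.9 CPM there and at 20.4, 54.3 and 39.4 CPM in the other NPC libraries, and *Hmga2* at 258 CPM there and at 115, 177 and 168 CPM in the others.

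Around *Tdh*, 18 of 20 enzymes of threonine, glycine and folate metabolism fell and 0 rose (median -1.60), and 14 fell under library totals. *Gcat*, which acts directly after TDH, fell by 2.70, *Gldc*, which cleaves glycine, by 2.27, *Shmt1* by 3.27 (the largest) and *Mat2a*, the source of S-adenosylmethionine, by 1.82. These changes were smaller than that of *Tdh*. NPC J/B replicate 1 was the highest NPC library for 17 of the 20 genes, against 26.3% of all genes, although it had the lowest *Tdh* level (2.17 CPM).

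Around *Tdgf1*, 15 of 17 genes of the NODAL pathway were tested, of which 6 fell and 5 rose, and 5 fell and 8 rose with library totals. The ligands *Nodal* (-5.14) and *Gdf3* (-6.14) and the feedback inhibitors *Lefty1* (-4.75) and *Lefty2* (-5.14) fell with *Tdgf1*, as did *Foxh1* (-3.79), the DNA-binding partner of SMADs. Among those that rose were the receptor gene *Acvr2a* (1.78), the transducer *Smad3* (1.71) and *Furin* (2.55), a convertase that processes NODAL. Around *Fbxo15*, 5 of 8 genes of the SCF core fell (median -0.69), with *Skp1* at -0.98 and *Cand1* at -0.65, but the direction depended on scaling, since 1 fell and 2 rose with library totals and 0 fell and 2 rose with scaling to *Gapdh*, *Gusb* and *Tbp*.

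**Figure D4:**
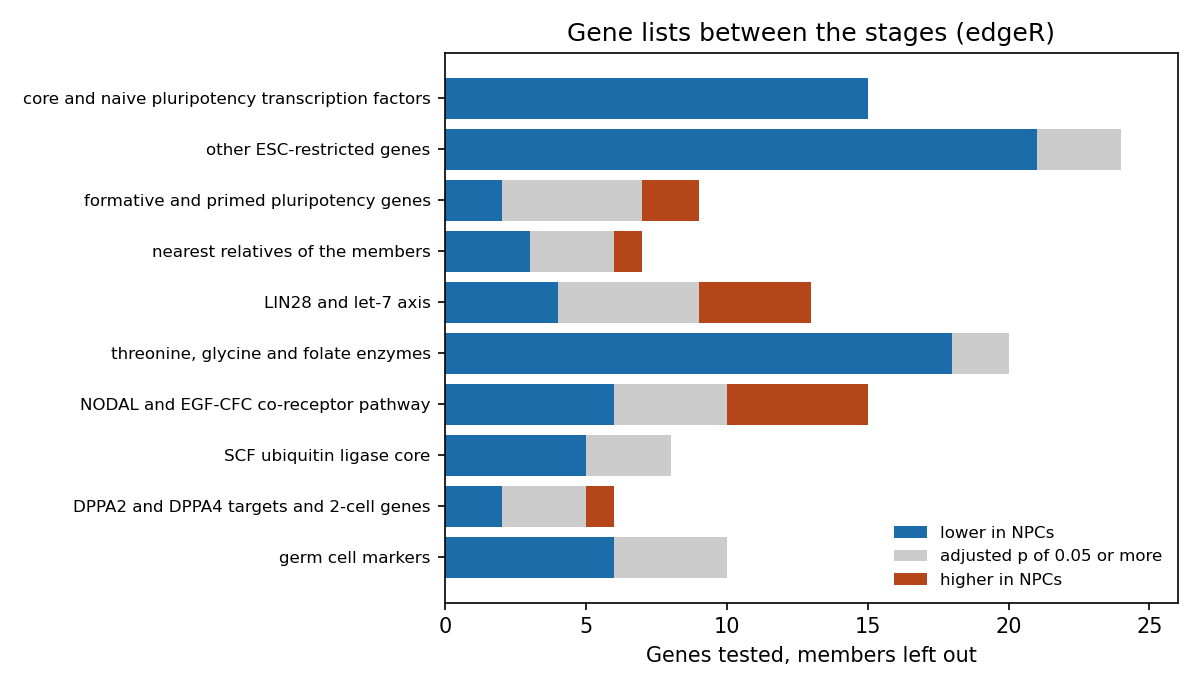
Number of genes tested in each list that were lower, higher or not called in NPCs over both crosses (edgeR, adjusted p below 0.05), with the 10 genes left out of the lists. The 15 core and naive factors were all lower, as were 18 of the 20 threonine, glycine and folate enzymes, whereas the LIN28 and let-7 axis was divided, 4 lower and 4 higher.

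Of the targets of DPPA2 and DPPA4 and genes of the 2-cell embryo, 6 of 19 passed the filter on low counts, of which *Syce1* (-3.38) and *Dazl* (-2.60) fell and *Tdrkh* (2.20) rose. The call of *Dazl* (adjusted p = 0.0413, edgeR) was not stable. It was lost in 9 of the alternatives, among them library totals (adjusted p = 0.0832), no low-count filter (0.107) and the fits without any 1 of 5 libraries (0.0541 to 0.148, the highest without ESC J/B replicate 1, where *Dazl* was at 27.8 CPM). Of 10 germ cell markers, which share several genes with the ESC programme, 6 fell and 0 rose, led by *Dnd1* (-3.66), but 3 fell and 2 rose with library totals. *Kit*, a receptor tyrosine kinase gene, changed by -0.68 (adjusted p = 0.0338, edgeR), a call lost with library totals (-0.19, adjusted p = 0.476) and without any 1 of 5 libraries.

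The genes whose pattern over the 8 libraries was closest to the mean of the 10 were named by the Euclidean distance of centred log2 TMM-normalized CPM. They were *1700097N02Rik* (0.451), *Gm10324* (0.743), *Zfp459* (0.763), *Zfp296* (0.779) and *Pla2g1b* (0.781). Their ESC means ran from 29.7 CPM (*Pla2g1b*) to 95.2 CPM (*Zfp459*) and their NPC means from 0.494 to 2.12 CPM. Of the 10 genes themselves, *Dppa4* was closest to that mean (0.431) and *Lin28a* farthest (4.45). The libraries share their stage difference, so that this likeness is a description.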

How the data were processed

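Counts of 8 RNA-seq libraries were analysed. As given by the study's methods and the submitters' processing notes, the authors used TopHat2 and an mm39 genome masked at SNPs (refGene-based annotation) to align the read pairs, filtered with samtools for proper pairs of mapping quality 20 or more, and deposited raw counts per gene, both alleles together. The notes also name HTSeq, DESeq2 and edgeR. The study's methods give the first-strand library type for the alignment. The strand setting of the counting, and which of the kits (TruSeq Stranded mRNA or NEBNext Ultra II) and instruments made which library, are not given in these sources. Entries that name no gene were left out of totals (no feature 5.76% to 10.9%, ambiguous at most 0.554%).

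Counts were tested in R 4.3.3 with edgeR 4.0.16 (TMM, filterByExpr with a minimum count of 10, robust quasi-likelihood test, 4 group means over all 8 libraries). SEs were taken as the absolute log2 fold change over the square root of F. CPM values use library totals without TMM factors. Pair ratios added 0.5 counts. Alternatives were library totals, RLE factors, *Gapdh*, *Gusb* and *Tbp* as scaling genes, DESeq2 1.42.0, limma-voom (limma 3.58.1), other filters, a replicate block, the 4 libraries alone and each library left out; a block within each stage, and the share left in NPCs and the pairs of *Lin28a* without each library, were added after seeing the data. Positions, lengths and promoters came from GENCODE vM39 (GRCm39), and let-7 from RefSeq (GRCm38.p6 table). Named by rule were the 10 genes, *Pou5f1*, *Nanog*, of each list the largest fall, the largest rise and the gene of the highest mean CPM in ESCs (not scaled to length), every near relative, and the 5 closest patterns; others were chosen after their values were seen. The 10 genes and the lists were chosen with earlier results of these data known. Allelic expression was not analysed here.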

Additional observations from a re-analysis of the deposited data

Results flagged for a closer look

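In 2 of the 20 groups of 4 libraries examined (each of the 10 genes in ESCs and in NPCs), 1 library lay farther from the others than Dixon's 95% critical value allows, which chance does in about 1 in 20 groups. *Lin28a* in NPC J/B replicate 1 was at 381.6 CPM, above the other NPC libraries, and the gap took up 0.882 of the range of the group. *L1td1* in ESC J/B replicate 1 was at 671.1 CPM, below the other ESC libraries, with a gap of 0.836 of the range.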

How the results depend on the processing

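Of 530 stage values of the 10 genes under the alternatives, over both crosses or within a cross, 523 kept their direction and their side of the threshold, 0 reversed, and 7, all of *Lin28a* within J/B, no longer passed. These were library totals (-1.60), the scaling genes *Gapdh*, *Gusb* and *Tbp* (-1.42), no low-count filter (-2.04), the 4 libraries alone (-2.07), the block within each stage (-1.63), and the fits without ESC B/J replicate 2 (-2.06) or ESC J/B replicate 2 (-1.68), with an adjusted p of 0.05 to 0.104. The percentages left in NPCs kept within the replicate spread in all 20 values under other scalings, but moved in one direction with each. With TMM-normalized CPM they were lower for all 10 genes, for example 15.8% for *Lin28a* and 1.02% for *Tdh*. With counts relative to *Gapdh*, *Gusb* and *Tbp* they were higher for all 10, at 24.4% for *Lin28a* and 1.57% for *Tdh*. With each library left out, the genes called numbered 10 to 10 over both crosses and in B/J, 9 to 10 in J/B, and 0 to 0 for the interaction, for the cross in either stage and for the pairs.

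The interaction called 1 gene with DESeq2 (*Utf1*). The cross in NPCs called 2 with DESeq2, 1 without a low-count filter (*Utf1*, adjusted p = 0.0314) and 2 with the block within each stage (*Utf1* and *Tdh*, adjusted p = 0.035 each). Estimates that changed sign were uncalled. Without NPC J/B replicate 1, *Lin28a* was -0.21 in the interaction and -0.39 for the cross in NPCs, and with 1 library left out at a time these ran up to 2.18 and 2.01. For the cross in ESCs the range over single libraries left out was -0.39 to 0.96 for *Dppa2*, -0.57 to 0.11 for *Lin28a*, -0.70 to 0.54 for *Dppa5a*, -0.28 to 0.41 for *Tdgf1* and -0.084 to 0.64 for *Fbxo15*, with the low end (for *Lin28a* the high end) without J/B replicate 1 and the other end without J/B replicate 2. Leaving out B/J replicate 2 gave 0.035 for *Utf1* (-0.39 at the other end of its range), -0.21 for *Dppa5a* and -0.06 for *Tdgf1*. *Dppa5a* was -0.046 with limma-voom and -0.041 with the block within each stage. Beyond those that leave out a library, the cause was not tested.

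The labels give replicate numbers but no shared source. Replicate differences correlated between crosses within a stage (0.613 in ESCs, 0.507 in NPCs) and hardly across stages (0.0474 to 0.0919). The replicate block left the calls at 10 in each stage comparison, and 0 for the interaction and either cross comparison. With this block the exact permutation p of a pair of genes cannot go below 0.125, so it says nothing of the pairs. It also called *Otx2* (2.52, adjusted p = 0.0205), and the block within each stage called *Otx2* (4.44), *Pou3f1* (1.48) and *Fgf5* (1.18), so that 5 formative and primed genes rose there. The scaling moved the median of all genes from 0.17 (TMM) to 0.65 (library totals) and 0.80 (*Gapdh*, *Gusb* and *Tbp*), and the share of calls that were higher from 54.0% to 70.1% and 75%. Of 510 list counts, 457 stayed within 1.5 times. At the lowest NPC counts, 22 for *Dppa2*, depth limits the precision.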

Other observations

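Lists of cell type markers moved as follows between ESCs and NPCs over both crosses (edgeR's quasi-likelihood test, adjusted p below 0.05). For genes near 0 in ESCs the levels are given in place of a fold. Of 10 neural precursor markers, 9 rose and 0 fell, with *Vim* at a log2 fold change of 1.36, and 10 rose with library totals. The largest rise was that of *Fabp7*, a fatty acid binding protein of radial glia, from at most 0.511 CPM in ESCs to 29.0 to 164 CPM in NPCs. Neuron markers summed to 279 to 375 CPM in ESCs and to 328 to 1938 CPM in NPCs. Of the 10, 8 rose, led by *Dcx*, which encodes a microtubule protein of young neurons (at most 0.415 CPM in ESCs and 71.7 to 468 CPM in NPCs), and *Stmn2* fell (-1.51), a call lost with scaling to *Gapdh*, *Gusb* and *Tbp* (-0.82, adjusted p = 0.122). Of 10 trophoblast markers, 9 rose and 0 fell. *Tpbpa*, a marker of the spongiotrophoblast, had 0 counts in the ESC libraries and 171 to 450.02 CPM in NPCs, and *Tfap2c* changed by 0.90 (adjusted p = 0.052, edgeR, and 0.0126 with library totals). Of 10 fibroblast markers, 8 rose, led by *Lum*, a proteoglycan of the matrix (at most 0.133 CPM in ESCs and 40.7 to 148 CPM in NPCs). *Fn1* fell (-0.39), a call that was lost with library totals (0.09) and without any 1 of 5 libraries. Primitive endoderm markers summed to 81.4 to 111 CPM in ESCs and to 276 to 665 CPM in NPCs. Of the 10, 7 rose, led by *Pdgfra* (5.96), which fibroblasts and glial precursors also express, *Lama1* rose by 0.68 (-0.30 within B/J and 1.67 within J/B), and *Sox7* fell (-1.09), a call likewise lost with library totals. These lists were counted in the same libraries as the 10 genes, and their part in the levels of the 10 genes was not tested.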
